A study of Mus musculus with 12 samples.

Results

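The calpains are the family of calcium-activated cysteine proteases, and 9 of their genes (Capn1, Capn2, Capn3, Capn5, Capn7, Capn8, Capn9, Capn10 and Capn12) were followed across both sides of the main olfactory epithelium (MOE) of wild type (WT) and H2be-KO mice after unilateral naris occlusion (UNO). A gene was read from the probe set that carries its symbol alone and, where there were several, from the one with the highest mean log2 level over the 12 arrays. This rule found 8 of the 9 genes among 19938 genes with such a probe set, each with 1 probe set. Capn3, the calpain of skeletal muscle, shares its probe set with another gene, so no value is given for it. Capn8 was chosen by its difference between the closed and the open side on these same arrays. Its values in that comparison are therefore a description, and no test is given for them.

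The 4 groups were the open and the closed side of WT mice and the open and the closed side of H2be-KO mice, with 3 samples each. In the H2be-KO allele the coding sequence of H2be, a histone H2B variant of olfactory neurons, is replaced by one for a membrane-bound mCherry (Gap43-mCherry), and founders were crossed to C57Bl/6 mice. All mice of both genotypes had the right nostril closed by electrocautery at 14 days of age. Tissue was taken 3 weeks later from mice that the titles give as 5 weeks old, although an age of 6 months stands in another label. The open side is thus the other side of operated animals, and no unoperated mice are part of the comparison. Each sample pooled tissue of 2 mice, 1 female and 1 male, by the series' description, while the figure legends give a larger number.

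Values are log2 levels from 1 Affymetrix whole-transcript array per sample, normalized between arrays. Median log2 levels of the 12 arrays lay between 7.21 and 7.30, and Pearson's r between arrays was 0.965 to 0.978 within groups and 0.964 to 0.978 across them. The tissue held its defining transcript, with the log2 level of Omp, the marker of mature olfactory sensory neurons (OSNs), between 12.53 and 12.71 on all arrays. H2be (H2bc21) had log2 levels of 11.55 to 11.75 in WT and 11.31 to 11.46 in KO arrays, and its KO minus WT difference averaged over sides was -0.27 (adjusted p = 0.336, limma). Where its probes lie relative to the replaced coding sequence was not known here, so this level does not check the genotype.

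Calpains cut their substrates at a few positions rather than degrading them, and are switched on by calcium. The ubiquitous forms, calpain 1 and calpain 2, are each a large catalytic subunit (Capn1 or Capn2) bound to a common small subunit (Capns1), and both are held in check by the protein calpastatin (Cast). Capn8 and Capn9 encode calpains best known from the mucous cells of the stomach, where their products act together, while Capn5, Capn7 and Capn10 encode calpains without the calcium-binding EF-hand domain of the ubiquitous forms. In neurons, calpains trim cytoskeletal, synaptic and signalling proteins.

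Capn8 and Capn2 are next to each other on chromosome 1 and lie on opposite strands. Their starts are at their near ends, so that they are transcribed away from one another. Their promoters are shown because the arrays read these neighbours so differently. The sequences are from RefSeq (GRCm38.p6) and run 5′ to 3′ from 250 bases before to 50 bases after the annotated start, with CpG dinucleotides in capitals. Capn8 is at chr1:182564757-182565056 on the plus strand and Capn2 at chr1:182517561-182517860 on the minus strand.
Capn8: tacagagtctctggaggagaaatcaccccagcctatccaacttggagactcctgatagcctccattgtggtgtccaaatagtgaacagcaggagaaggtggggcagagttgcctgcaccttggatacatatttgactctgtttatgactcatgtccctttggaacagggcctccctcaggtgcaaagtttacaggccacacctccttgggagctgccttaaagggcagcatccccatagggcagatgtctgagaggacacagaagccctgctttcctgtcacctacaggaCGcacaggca
Capn2: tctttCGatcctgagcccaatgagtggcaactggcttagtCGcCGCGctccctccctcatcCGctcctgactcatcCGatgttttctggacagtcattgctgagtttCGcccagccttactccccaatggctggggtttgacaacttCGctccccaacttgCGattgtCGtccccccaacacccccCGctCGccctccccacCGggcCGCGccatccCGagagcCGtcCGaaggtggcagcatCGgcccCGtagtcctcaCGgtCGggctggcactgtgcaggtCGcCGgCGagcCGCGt
The Capn8 window held 1 CpG and the Capn2 window 27. Among 32851 promoter windows of the same length in the table, the median number was 7, and 14.1% held at most 1 while 15.5% held at least 27. A promoter was listed for 8 of the 9 calpains, all but Capn5. Counts of CpG in the other calpain windows were 25 for Capn7, 21 for Capn10, 14 and 15 for the 2 windows of Capn1, 9 for Capn12, 6 for Capn9, and 4 and 6 for the 2 windows of Capn3, so Capn8 had the fewest of them. The AP-1 motif TGACTCA, searched on both strands, was in the windows of Capn8, Capn2 and Capn12 and in 5.2% of all windows. The cAMP response element TGACGTCA and, on either strand, the TATA box letters TATAAA and the letters TTTAAA were in no calpain window and in 1.79%, 13.6% and 13.2% of all windows. These matches are letters in a window and were not tested as sites.

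Capn8 was low in every open-side sample and well measured in every closed-side sample. In WT mice its log2 level was 2.23, 4.32 and 3.57 in the 3 open-side samples and 6.94, 6.80 and 6.91 in the 3 closed-side samples. In H2be-KO mice the open-side samples had 4.32, 4.16 and 4.66, against 7.05, 6.92 and 7.07 for the closed side. All 6 open-side values lay below a log2 level of 5, the level under which values were marked as low, and all 6 closed-side values lay above it. Between the highest open-side and the lowest closed-side value there was a gap of 2.14 on the log2 scale. Capn8 was the only calpain with any value below 5, and its mean over the 12 arrays, 5.41, passed the filter of 5 only through the closed side. In tissue of this kind, fewer cells of a type and less RNA per cell cannot be told apart.

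**Figure D1:**
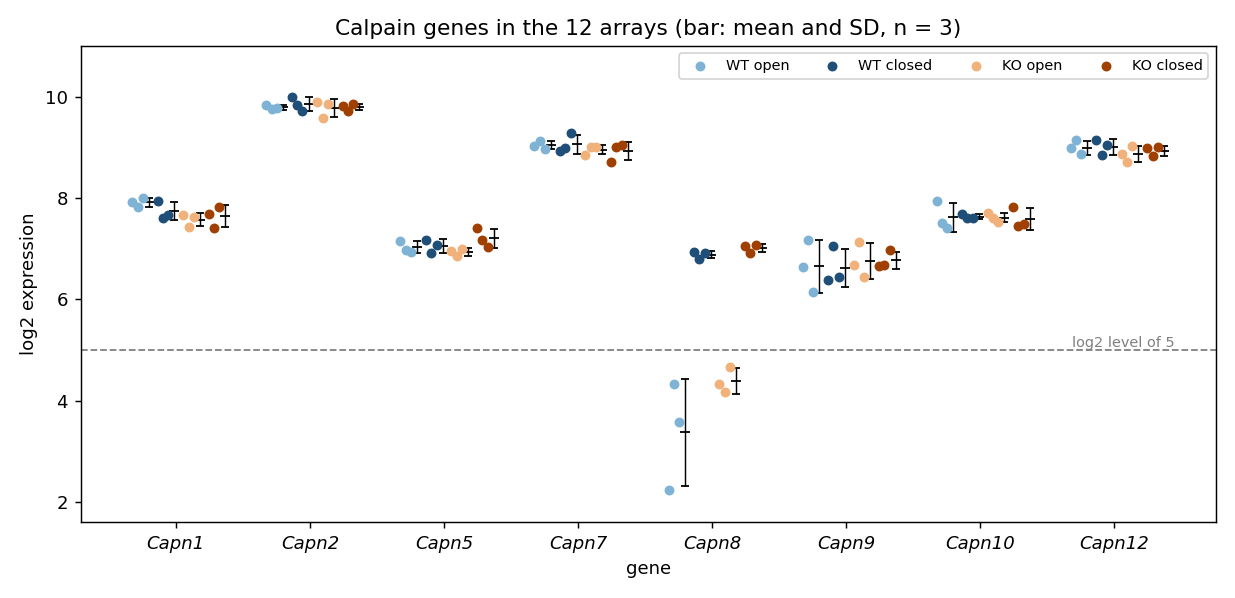
Log2 expression (vertical axis) of 8 calpain genes on each of the 12 arrays, coloured by genotype and side, with the mean and SD of each group (n = 3) beside its points. Capn8 lies between 2.23 and 4.66 on the open side and between 6.80 and 7.07 on the closed side, and no other calpain has a value below the dashed line at 5. Levels of different probe sets depend on their probes and do not rank the genes.

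The difference between the sides, closed minus open, was 3.51 on the log2 scale in WT mice (standard error 0.38) and 2.63 in H2be-KO mice (standard error 0.38). Each was the largest rise of all 32615 probe sets above the filter in its genotype, ahead of 3.12 in WT and 2.05 in KO for the next one, a rank that rests on open-side values below 5. Taken at face value these are differences of 11.4-fold and 6.21-fold. With the open side set at 5 instead, the closed side was at least 3.69-fold higher in WT and at least 4.04-fold higher in KO mice. On the log2 scale these bounds are 1.88 and 2.02, both below the next largest rises as measured. Only 1 other probe set of the table, which carries no gene symbol, had all open-side values below 5 and all closed-side values above it, with levels up to 4.68 on the open side and from 5.68 on the closed side.

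**Figure D2:**
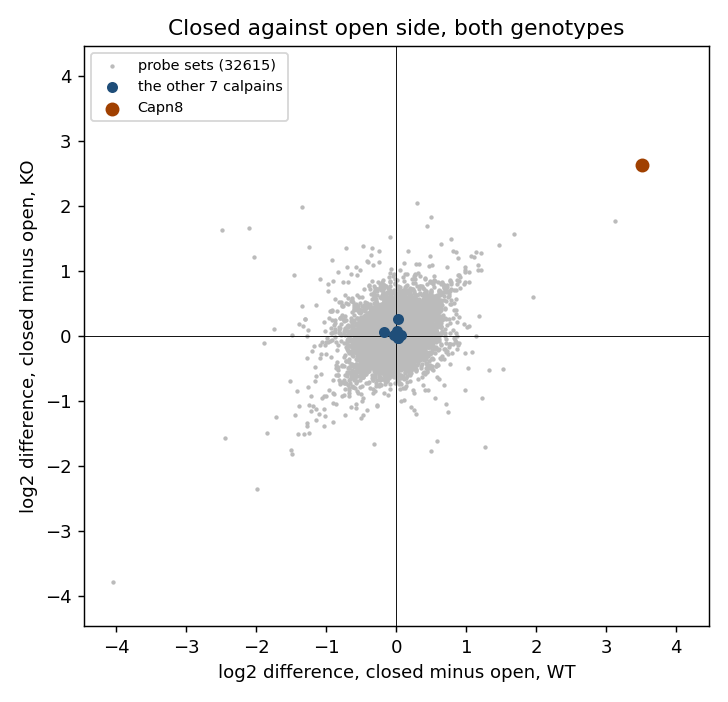
Log2 difference between the closed and the open side in KO mice (vertical axis) against the same difference in WT mice (horizontal axis) for the 32615 probe sets above the filter. Capn8 stands at 3.51 and 2.63, and the other 7 calpains lie among the bulk of the probe sets, between -0.18 and 0.27.

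Replicates of Capn8 were tight on the closed side and loose on the open side. The SD was 0.07 in WT closed and 0.08 in KO closed samples, and the 6 closed-side values spanned 0.27 on the log2 scale, or 1.21-fold. On the open side the SD was 1.06 in WT and 0.26 in KO samples. As a guide to the spread at such levels, the median SD was 0.44 over the 1213 probe sets with a WT open mean between 3 and 4.5 and 0.19 over the 8117 with a WT closed mean between 6.5 and 7.5. The lowest value, 2.23 in WT open 1, moved the WT difference most, to 2.94 when that array was left out. Ordered by mean, the groups ran from WT open (3.38) through KO open (4.38) and WT closed (6.88) to KO closed (7.02). The WT and KO samples of the open side overlapped, as did those of the closed side, and the open and closed sides did not overlap.

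Between the genotypes, Capn8 had a KO minus WT difference of 0.57 averaged over the sides (standard error 0.27), which is a description like its side difference, since 6 of its 12 values lay below 5. KO minus WT was 1.01 on the open side, where all values were below 5, and 0.13 on the closed side. With values below 5 set to 5, an alternative chosen after seeing the data, the average difference was 0.07. Without WT open 1 and with no such limit it was 0.28. The side difference was smaller in KO than in WT mice by 0.87 as measured, by 0.30 without WT open 1, and larger by 0.13 with values below 5 set to 5. No genotype test of Capn8 is read from these values.

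The other calpains did not follow Capn8. Of the 7, none passed the test between the sides in WT mice (limma, 0 also at an unadjusted p under 0.05) or in H2be-KO mice (limma, 1 at an unadjusted p under 0.05). Over all probe sets tested, 0.855% were called in WT and 1.05% in KO mice, with 9.34% and 10.5% at an unadjusted p under 0.05, so a count of 0 among 7 genes does not set these calpains apart from the rest. Their log2 differences lay between -0.18 and 0.06 in WT and between -0.03 and 0.27 in KO mice, with medians of 0.02 and 0.02 beside -0.01 and 0.02 over all probe sets. The 95% intervals of these 7 genes reached at most 1.53-fold in WT and 1.51-fold in KO mice, in both cases for Capn9.

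No difference between the sides was called for the large subunits of the ubiquitous calpains. Capn2 had log2 levels of 9.83, 9.75 and 9.78 in WT open, 10.00, 9.83 and 9.72 in WT closed, 9.90, 9.58 and 9.85 in KO open and 9.81, 9.73 and 9.86 in KO closed samples. All 4 groups overlapped, within a range of 0.42, and the closed minus open difference was 0.06 in WT (adjusted p = 0.946, limma) and 0.02 in KO mice (adjusted p = 0.983, limma). Capn1 had log2 levels of 7.93, 7.82 and 8.001 in WT open and 7.93, 7.60 and 7.67 in WT closed samples, a difference of -0.18 (95% interval -0.46 to 0.10, adjusted p = 0.780, limma). The KO open samples had 7.67, 7.42 and 7.63, and the KO closed samples had 7.69, 7.40 and 7.82. Each KO open sample was thus below each WT open sample, while the closed sides overlapped. The open-side KO minus WT difference, -0.34 (95% interval -0.63 to -0.06, adjusted p = 0.697, 0.0214 unadjusted, limma), did not pass. With 3 samples in each group, a lack of overlap is weak evidence. The KO minus WT difference of Capn1 averaged over sides was -0.22 (95% interval -0.42 to -0.02, adjusted p = 0.707, 0.0333 unadjusted, limma) and did not pass.

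Capn9, the partner of Capn8 in gastric mucous cells, showed no difference like that of Capn8. Its log2 levels were 6.65, 7.17 and 6.13 in WT open and 6.37, 7.05 and 6.43 in WT closed samples, and 6.68, 7.13 and 6.43 in KO open and 6.65, 6.68 and 6.97 in KO closed samples. The 4 groups overlapped, and this was the calpain with the widest spread apart from Capn8, 1.04 on the log2 scale over the 12 arrays. Closed minus open was -0.03 in WT (95% interval -0.61 to 0.55) and 0.02 in KO mice (95% interval -0.56 to 0.60). The lower ends allow a fall and the upper ends a rise, and neither interval reaches the bounds given above for Capn8, 1.88 and 2.02 on the log2 scale. Capn12, a calpain gene described in skin and hair follicle, had group means of 8.99, 9.01, 8.86 and 8.93 in the order WT open, WT closed, KO open, KO closed.

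Among the calpains that lack the EF-hand domain, Capn5 came nearest to a difference. Its log2 levels were 6.96, 6.85 and 7.002 in KO open and 7.40, 7.17 and 7.04 in KO closed samples, with no overlap and a difference of 0.27 (95% interval 0.01 to 0.52, adjusted p = 0.434, 0.0396 unadjusted, limma). The unadjusted p was no longer under 0.05 with quantile normalization, median centring, trend and robust fitting, array weights or the 6 KO arrays alone. The same held without KO open 1 or 2 or KO closed 1 or 2. In WT mice the values were 7.16, 6.98 and 6.93 on the open and 7.18, 6.91 and 7.06 on the closed side, which overlapped, and the difference was 0.02. The difference between the genotypes, 0.24 (standard error 0.16), did not pass (0.164 unadjusted, limma). Capn7, whose product binds the membrane-remodelling ESCRT proteins, had values between 8.72 and 9.28 on all arrays, with closed minus open at 0.02 in WT and -0.03 in KO mice. Capn10, a gene studied for its link to diabetes risk, lay between 7.40 and 7.94, with differences of 0.02 and -0.02. Over the 7 calpains other than Capn8, none passed the test of a genotype difference in the side effect (limma, 0 also at an unadjusted p under 0.05), and over all probe sets 0% were called and 4.01% had an unadjusted p under 0.05.

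For KO against WT averaged over sides, none of the 7 calpains other than Capn8 passed (limma, 1, Capn1, at an unadjusted p under 0.05). Over all probe sets 0.0276% were called in that comparison and 6.8% had an unadjusted p under 0.05. Their differences ran from -0.22 to 0.12 with a median of -0.03, against -0.02 over all probe sets, and their 95% intervals reached at most 1.45-fold.

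**Figure D3:**
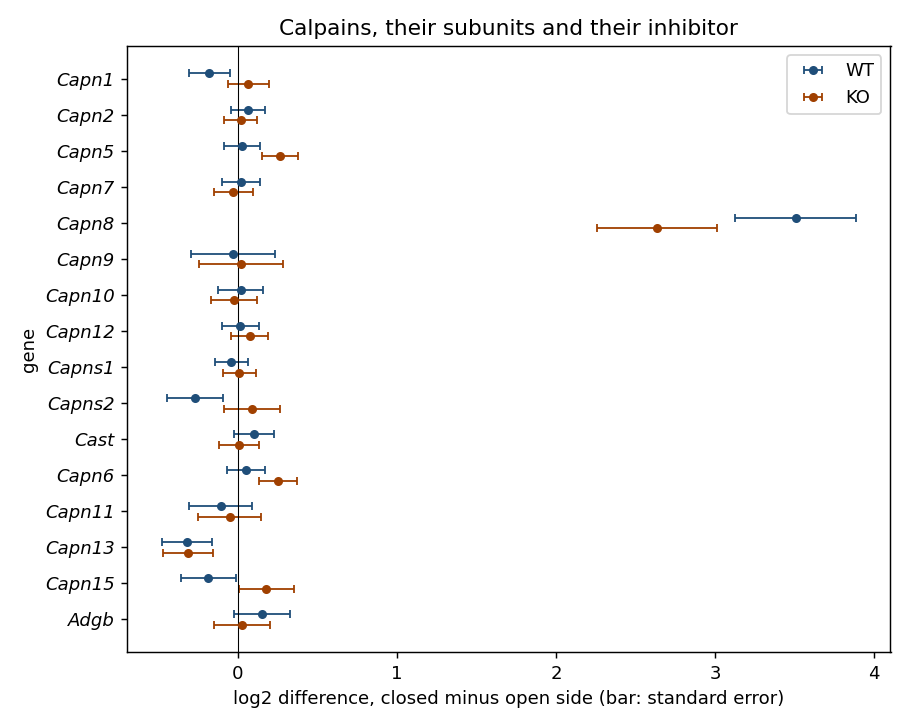
Log2 difference between the closed and the open side (horizontal axis) in WT and KO mice for the calpains, 2 small subunit genes, calpastatin and 5 related genes, with bars of 1 standard error from the fit over 12 arrays. All genes but Capn8 lie between -0.32 and 0.27.

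The genes that pair with calpains or hold them back did not pass either. The small subunit gene Capns1, which the ubiquitous calpains need, had a log2 level between 11.20 and 11.48 on all arrays, with closed minus open at -0.04 in WT and 0.01 in KO mice. Its relative Capns2 differed by -0.27 in WT (adjusted p = 0.742, limma) and 0.09 in KO mice. The inhibitor gene Cast differed by 0.10 and 0.01. Of 5 further genes of the family, Capn6, whose product lacks the catalytic cysteine, differed by 0.05 in WT and 0.25 in KO mice, Capn11, a testis calpain, by -0.11 and -0.05, Capn15, which carries zinc fingers, by -0.19 and 0.18, and Adgb, the androglobin gene with a calpain-like domain, by 0.15 and 0.03. Capn13 had the most negative values, -0.32 in WT (standard error 0.16, adjusted p = 0.574, limma) and -0.31 in KO mice (adjusted p = 0.531, limma).

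Among transcripts of proteins known to be cut by calpains, 1 rose and 1 fell on the closed side in each genotype. Of 34 such genes, 31 had a probe set of their own and all 31 were above the filter, with a median difference of -0.05 in WT and -0.01 in KO mice. Over all probe sets, 0.475% rose and 0.38% fell in WT, and 0.705% rose and 0.34% fell in KO mice. Ppp3ca encodes the catalytic subunit of calcineurin, the calcium-activated phosphatase. Its log2 level was 10.07, 10.08 and 9.97 in WT open and 10.58, 10.68 and 10.61 in WT closed samples, and 10.07, 10.13 and 10.08 in KO open and 10.68, 10.74 and 10.72 in KO closed samples. All closed-side values were above all open-side values, and Ppp3ca rose by 0.59 in WT (standard error 0.08, adjusted p = 0.00367, limma) and 0.62 in KO mice (adjusted p = 0.00234, limma). Camk4, a calcium and calmodulin-dependent kinase gene, had log2 levels of 7.005, 6.75 and 6.97 in WT open and 6.19, 6.27 and 6.49 in WT closed samples, and of 6.84, 6.60 and 6.85 in KO open and 6.19, 6.10 and 6.22 in KO closed samples. Here all closed-side values were below all open-side values, and Camk4 fell by 0.59 in WT (adjusted p = 0.0335, limma) and by 0.59 in KO mice (adjusted p = 0.0283, limma). The calls of Camk4 were lost with same-numbered samples as a block (adjusted p = 0.0896 and 0.0773), with trend and robust fitting, and, in both genotypes, without KO open 1 or any of the 3 KO closed arrays. They were also lost in KO mice without KO open 3, and in WT mice without replicates 1 or 3 of the open or 1 or 2 of the closed side (adjusted p up to 0.155 and 0.137). Sptan1, which encodes the spectrin chain that is the standard reporter of calpain cleavage, had group means of 10.74, 10.69, 10.65 and 10.65 in the order WT open, WT closed, KO open, KO closed. Transcript levels do not measure cleavage of the proteins.

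Of the genes beside Capn8 on chromosome 1, Susd4 was also higher on the closed side, by a smaller amount, and no difference was called for the others. In the RefSeq order the 3 nearest protein-coding genes before Capn8 are Fbxo28, Trp53bp2 and Capn2, and those after it are Ccdc185, Susd4 and Tlr5, which was named in no probe set of its own. Ccdc185 differed by 0.07 in WT and 0.03 in KO mice, Trp53bp2 by -0.13 and 0.13 and Fbxo28 by -0.20 and -0.16, and none of these passed. Susd4, a gene for a complement regulator, had log2 levels of 8.08, 8.14 and 8.002 in WT open and 8.34, 8.36 and 8.51 in WT closed samples, and of 8.01, 7.92 and 7.96 in KO open and 8.53, 8.48 and 8.41 in KO closed samples. The sides did not overlap in either genotype, and Susd4 rose by 0.51 in KO mice (standard error 0.08, adjusted p = 0.0161, limma). In WT mice the difference was 0.33 (adjusted p = 0.127, limma) and did not pass, and the difference between the genotypes was 0.18 (standard error 0.12, 0.168 unadjusted). Averaged over the genotypes, Susd4 rose by 0.42 (standard error 0.06, adjusted p = 0.00237, limma), a comparison in which 2.9% of all probe sets were called. That call held in all alternatives run, which were added for it after seeing the data, with an adjusted p of 0.0258 with same-numbered samples as a block. The KO call of Susd4 was lost without KO open 1, 2 or 3 or KO closed 1 or 2 (adjusted p up to 0.0800) and with same-numbered samples as a block (adjusted p = 0.0956).

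The 6 genes whose values went most closely with those of Capn8 over the 12 arrays also rose on the closed side. They rose less than Capn8, as they had to, since Capn8 had the largest rise of all probe sets above the filter. The size of this gap rests on its open-side values below 5. Its bounds were 1.88 in WT and 2.02 in KO mice, against rises of 1.17 and 1.01 for Zfp78. Likeness was measured by Pearson's r over all 12 arrays among 21184 probe sets with 1 symbol, of which 160 had an r above 0.9, and it is a description in which the side sets most of the pattern. The 6 genes were the zinc finger gene Zfp78 (r = 0.981), the odorant receptor gene Olfr1336 (0.979), the methyltransferase gene Etfbkmt (0.978), the phosphoinositide phosphatase gene Inpp5k (0.975), the acyltransferase gene Plaat1 (0.975) and the sialyltransferase gene St3gal4 (0.973). Zfp78 went from a mean log2 level of 7.81 to 8.98 in WT and from 8.06 to 9.07 in KO mice, and Olfr1336 from 7.24 to 8.001 and from 7.41 to 8.02. The other 4 differed by 0.36 to 0.44 in WT and 0.35 to 0.40 in KO mice. Within the 6 closed-side arrays alone, r of these genes with Capn8 was between -0.19 and 0.50, and within the 6 open-side arrays, where Capn8 was below 5, between 0.86 and 0.98. The genes were picked by r over these same arrays, so a high open-side r is no separate result. All 6 genes and Capn8 (2.23) were lowest in WT open 1. With Capn8 values below 5 set to 5, r over the 12 arrays was 0.915 to 0.967. That is no separate result either, since the genes were picked by r over the same arrays.

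**Figure D4:**
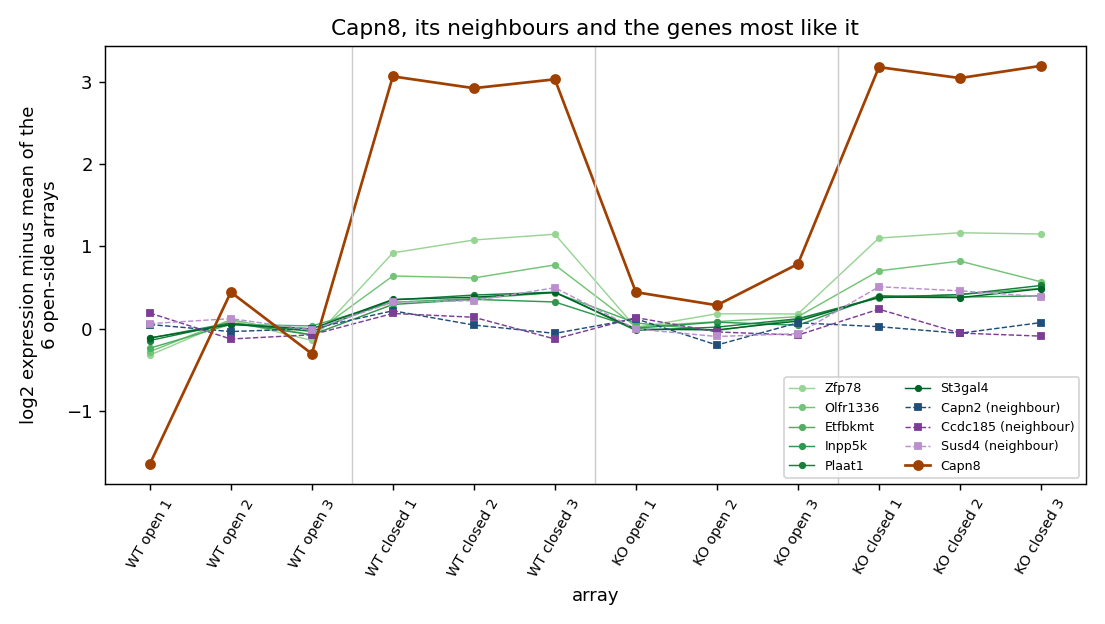
Log2 expression on each of the 12 arrays (horizontal axis) minus the gene's mean over the 6 open-side arrays (vertical axis), for Capn8, the 6 genes most like it and 3 of its neighbours on the chromosome. Capn8 rises above the 6 genes on all 6 closed-side arrays, by an amount that rests on open-side values below 5, and Capn2 and Ccdc185 stay near 0.

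Cell type markers were read beside Capn8, since MOE tissue of 1 side holds olfactory, respiratory and glandular tissue. Genes of gastric surface mucous cells, where Capn8 is best known, had 0 of 8 members called in either genotype, where 0.855% of all probe sets were called in WT and 1.05% in KO mice. At such shares a count of 0 in a list of this size, here or in the lists below, does not set it apart. The medians were -0.07 in WT and -0.01 in KO mice. Levels of a list were also summed on the linear scale in each sample. The log2 of that sum, named the summed level here, is weighted towards the brightest members and can hide changes of the others. The summed level of these 8 genes was 10.49 to 11.21 in WT open, 10.47 to 10.84 in WT closed, 10.46 to 10.77 in KO open and 10.54 to 10.64 in KO closed samples. Tff1 had group means of 6.89, 6.78, 6.63 and 6.51 in the order WT open, WT closed, KO open, KO closed, Gkn1 of 7.49, 7.35, 7.34 and 7.43, Gkn2 of 6.83, 6.96, 6.75 and 6.77 and Gkn3 of 8.85, 8.82, 8.81 and 8.76. The gel-forming mucin gene Muc5ac ranged from 4.54 to 9.61 over the arrays, with values of 9.61, 5.23 and 8.32 in WT open and 8.61, 6.54 and 4.54 in WT closed samples, and 8.11, 5.64 and 8.35 in KO open and 7.90, 4.97 and 7.17 in KO closed samples. High and low values of Muc5ac occurred on both sides in both genotypes. The remaining members, Muc1, Vsig1 and Capn9, did not pass. Of these, Vsig1 differed most, by -0.61 in WT and -0.58 in KO mice (adjusted p = 0.662 and 0.626, limma).

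Of 14 goblet and secretory markers, 13 were tested and 0 called, with Scgb1a1 at a mean below the filter (4.78). The summed level of the 14 was 14.27 to 14.56 on the open and 14.26 to 14.42 on the closed side over both genotypes. It mostly reflects the brightest members, Bpifa1, Cyp2f2 and Reg3g (mean log2 levels of 12.57, 12.49 and 12.165). Markers of respiratory ciliated cells had 0 of 7 called but medians of 0.21 in WT and 0.16 in KO mice, and summed levels of 11.69 to 11.75 in WT open, 11.84 to 11.96 in WT closed, 11.71 to 11.81 in KO open and 11.80 to 11.89 in KO closed samples. Ccdc39 differed by -0.01 in WT and -0.19 in KO mice and Tekt1 by 0.05 and -0.01, while the remaining members were higher on the closed side in both genotypes. No member passed among 7 sustentacular, 5 horizontal basal, 8 squamous, 6 immune and 5 skeletal muscle markers, beside the 0.855% and 1.05% called over all probe sets, with Krt6a and Cd79a below the filter.

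Some OSN markers differed between the sides, and those called went up among mature and down among immature markers. Over all probe sets, 0.475% rose and 0.38% fell in WT, and 0.705% rose and 0.34% fell in KO mice. Of 10 mature OSN markers, Cnga4, a subunit of the olfactory cyclic nucleotide-gated channel, rose by 0.37 in WT (adjusted p = 0.0487, limma). The channel subunit Cngb1, Cnga4 and the chloride channel Ano2 rose by 0.43, 0.42 and 0.38 in KO mice (adjusted p = 0.0254, 0.0250 and 0.0463, limma). In WT mice Cngb1 rose by 0.33 and Ano2 by 0.37 without passing (adjusted p = 0.0954 and 0.0642, limma). Both were called there with a filter of a mean above 7 and with trend and robust fitting. The summed level of the 10 was 14.73 to 14.82 on the open and 14.94 to 15.03 on the closed side over both genotypes, without overlap, while Omp differed by -0.01 in WT and 0.06 in KO mice. Of 6 immature OSN markers, Gng8, a G protein gamma subunit gene, fell by 0.54 in WT mice (adjusted p = 0.0130, limma). The transcription factor gene Nhlh2 fell by 0.47 in KO mice (adjusted p = 0.0387, limma). In the other genotype, Gng8 fell by 0.29 and Nhlh2 by 0.34 without passing (adjusted p = 0.195 and 0.165, limma). Gap43, Dpysl3 and Stmn2 fell in both genotypes without passing. Dcx did not fall, with differences of 0.02 in WT and 0.08 in KO mice that did not pass. The summed level of the 6 was 12.82 to 12.97 on the open and 12.60 to 12.70 on the closed side. Each of the 6 calls of the main fit was lost with same-numbered samples as a block. Leaving out any 1 of the 12 arrays ended those of Cnga4 in WT and Ano2 in KO mice (adjusted p up to 0.197 and 0.231), and any 1 of the 6 KO arrays ended those of Cnga4 and Cngb1 in KO mice (up to 0.130 and 0.121). That of Gng8 was lost without WT open 1 or 3 or WT closed 2 or 3 (up to 0.0766), and that of Nhlh2 without any array but WT closed 2 or 3 (up to 0.174). With the mean of its probe sets, Cngb1 differed by 0.09 in KO mice (adjusted p = 0.869). The part of these cell types in the difference of Capn8 was not tested.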

How the data were processed

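RNA from the open or the closed side of the MOE in 12 samples was read on Mouse Gene ST arrays (Affymetrix). Per its methods and the submitters' processing notes, the study used the Expression Console with IterPLIER summarisation after sketch-quantile normalization, and the authors deposited a log2 level for each probe set on each array. Symbols came from the platform's annotation, updated through Entrez IDs to RefSeq (21789 probe sets with 1 symbol, 1621 with several and 12146 with none). Probe sets with a mean log2 of 5 or less (2941) were removed, the level used in the study, and 1 mean per group was fitted to the other 32615 with lmFit and eBayes (limma 3.58.1, R 4.3.3). This gave 11.5 degrees of freedom. Tests were two-sided with Benjamini-Hochberg adjustment over all probe sets and a threshold of 0.05. The fit was checked on simulated data. A genotype test of Capn8 had been planned and is not reported, since its open-side values were all below 5. Samples were grouped by their titles. Nothing states that the samples of a group come from separate litters or that the sides share mice, so p-values measure the spread between these samples, whose number limits the precision.

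Members, the lists of genes and the rule for named genes were chosen with earlier results of these data known, and the study's supplementary tables had been searched for calpains. The rule took all calpains and their partners, called members of the lists, the 6 genes most like Capn8, its 3 neighbours on each side and the gastric list. The alternatives are named in the closing section. Sptan1, Omp, Scgb1a1 and H2be were named outside the rule, and the promoter motifs and CpG counts were chosen after the sequences were read. Figures were drawn with matplotlib 3.10.9.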

Additional observations from a re-analysis of the deposited data

How the results depend on the processing

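Capn8 kept its direction between the sides in every alternative that could be run, with closed minus open from 2.94 to 3.98 in WT and from 2.52 to 2.77 in KO mice when each array was left out in turn. Since the sides did not overlap, leaving out an array could change the size of the difference but not its direction. Setting values below 5 to 5, chosen after seeing the data, gave 1.88 and 2.02. A filter of a mean above 7 removed Capn8 and Capn9, so no value for them exists there. The 7 other calpains had 0 calls between sides, between genotypes and for the difference between genotypes in every alternative run (no filter, a filter of 7, quantile normalization, median centring, trend and robust fitting, array weights, the mean of a gene's probe sets, a block, 1 genotype alone, and 12 sets of 11 arrays). Over 21 differences of single calpains, 452 alternative values gave 0 calls, with a lowest adjusted p of 0.288 (limma). The rise of Ppp3ca was called in all of these but the fit of the 6 WT arrays alone (adjusted p = 0.119), and Susd4 was called in WT mice with a filter of 7 (adjusted p = 0.0468) and not called in KO mice in the 6 KO arrays alone (adjusted p = 0.0880). Camk4 was not called with 1 genotype alone (adjusted p = 0.242 and 0.0880). Median centring ended the calls of Cnga4 (adjusted p = 0.0571 in WT and 0.0504 in KO mice) and Ano2 (0.0791), and no alternative turned a direction that was called.

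With replicate number as a block, pairing same-numbered open and closed samples, Capn8 differed by 3.51 in WT and 2.63 in KO mice as before. Such a block cannot change these differences, since each number holds an open and a closed sample in each genotype. Deviations of same-numbered samples correlated with r from -0.01 to 0.23, and those of open and closed samples with different numbers with r from -0.19 to 0.13. Not every sample correlated best with its own number, and nothing states that same-numbered samples share mice. The count of calpain calls stayed at 0 with the block.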

Other observations

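The reverse of the Capn8 pattern, all open-side values above a log2 level of 5 and all closed-side values below it, was held by 3 probe sets, of which 2 carry 1 gene symbol. These were Ppef1, which encodes a protein phosphatase with EF-hands, at 5.75 or more on the open side and 4.11 or less on the closed side, and B230110C06Rik, at 5.38 or more and 4.96 or less. They were chosen after their values were seen, and no test is given.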
